A study of Mus musculus with 20 samples.

Results

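Myc sits in a network of basic helix-loop-helix leucine zipper (bHLHZ) transcription factors that share the partner Max, and 10 genes of that network, Myc, Mycn, Max, Mxd1, Mxd3, Mxd4, Mxi1, Mnt, Mlx and Mga, are described here across 20 mouse RNA-seq libraries. The members were taken by gene symbol from the 49315 gene IDs of the count table. All 10 passed the filter on low counts, as did 28082 genes in all. The libraries came from sorted CD4+CD25- T effector cells of the spleen, and the study compared mice with a floxed Pcbp2 gene and a Cre transgene under CD4 control (CKO) with floxed littermates that served as controls (CTL). Pcbp2 encodes an RNA-binding protein that recognises C-rich sequence. Cells were taken unstimulated (0 h: 6 CTL and 6 CKO libraries) or after 6 h with beads carrying antibodies to CD3 and CD28, which stand in for antigen and costimulation (5 CTL and 3 CKO libraries). The mice's age is not given in the sources used here. A library is named here by its group and by the number in its label. All CKO libraries at 0 h are labelled male, while CTL at 0 h and both groups at 6 h hold both sexes. The genotype comparison at 0 h is thus unbalanced for the sex label, which is a term of the fit. Number 5.6 of CKO is labelled male at 0 h and female at 6 h.

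In this network a Myc-Max pair binds the E-box CACGTG and raises genes of ribosome assembly, nucleotide and polyamine synthesis and glycolysis. The proteins of Mxd1, Mxd3, Mxd4, Mxi1 and Mnt pair with Max on the same sites and bring in Sin3 and histone deacetylases, so they act as repressors. Mlx pairs with Mxd1, Mxd4, Mnt and the glucose-sensing Mondo factors, and Mga joins Max in a Polycomb complex that silences germline genes. In T cells, stimulation of the antigen receptor is known to raise Myc, which supports cell growth before division.

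The first 4 promoters shown next hold the E-box that the network itself reads. That of Mxd1, the repressor gene called higher at 6 h in both genotypes, does not. All are RefSeq windows of 300 bases on GRCm38.p6, from 250 bases before to 50 after a gene's start, printed 5′ to 3′ on the gene's strand with CACGTG in capitals. Max lies at chr12:76962199-76962498 (minus strand), Mlx at chr11:101087040-101087339 (plus), Mnt at chr11:74830674-74830973 (plus), Mxd4 at chr5:34187661-34187960 (minus) and Mxd1 at chr6:86669110-86669409 (minus).
Max: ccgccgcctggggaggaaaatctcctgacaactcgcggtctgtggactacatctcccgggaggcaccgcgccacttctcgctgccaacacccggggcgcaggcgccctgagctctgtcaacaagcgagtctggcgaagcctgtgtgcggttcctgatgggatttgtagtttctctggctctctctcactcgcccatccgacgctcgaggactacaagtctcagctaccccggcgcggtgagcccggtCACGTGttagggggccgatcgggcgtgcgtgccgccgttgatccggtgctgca
Mlx: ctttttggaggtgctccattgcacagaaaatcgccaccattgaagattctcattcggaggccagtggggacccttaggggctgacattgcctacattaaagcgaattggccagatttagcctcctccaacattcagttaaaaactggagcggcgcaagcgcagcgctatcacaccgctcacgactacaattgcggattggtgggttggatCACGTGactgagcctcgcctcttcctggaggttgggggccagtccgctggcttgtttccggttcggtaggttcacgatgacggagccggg
Mnt: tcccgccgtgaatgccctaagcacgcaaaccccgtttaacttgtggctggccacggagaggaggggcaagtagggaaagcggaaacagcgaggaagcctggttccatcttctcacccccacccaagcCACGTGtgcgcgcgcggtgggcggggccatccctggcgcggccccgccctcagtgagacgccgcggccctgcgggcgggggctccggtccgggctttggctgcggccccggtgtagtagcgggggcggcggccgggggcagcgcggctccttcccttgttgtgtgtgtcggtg
Mxd4: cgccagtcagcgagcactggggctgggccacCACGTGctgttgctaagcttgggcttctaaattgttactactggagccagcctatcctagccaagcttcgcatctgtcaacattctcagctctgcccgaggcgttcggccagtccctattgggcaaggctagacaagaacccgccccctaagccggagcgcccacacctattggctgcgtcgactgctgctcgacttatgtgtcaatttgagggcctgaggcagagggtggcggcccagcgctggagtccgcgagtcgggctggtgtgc
Mxd1: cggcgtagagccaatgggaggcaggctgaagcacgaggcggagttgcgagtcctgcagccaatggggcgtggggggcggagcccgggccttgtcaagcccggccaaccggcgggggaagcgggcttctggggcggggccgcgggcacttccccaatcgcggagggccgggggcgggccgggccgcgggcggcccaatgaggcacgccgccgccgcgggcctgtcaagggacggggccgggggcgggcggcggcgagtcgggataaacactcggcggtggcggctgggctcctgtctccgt
The E-box began 3 bases before the start in Max, 40 before it in Mlx, 123 before it in Mnt and 219 before it in Mxd4. Among the 9 members with a RefSeq window, 4 held CACGTG in at least 1 window, against 8.09% of the 27025 genes in the table. The AP-1 site (TGACTCA or TGAGTCA) was in none of the 9, against 5.95% of genes. The FOXO site GTAAACA was in Mxi1 alone among the 9 (4.05% of genes), and the E2F site (TTTCCCGC or TTTGGCGC) in Mycn alone (1.80% of genes). All motifs were searched on both strands, and a match is a description of letters, not of binding. The window of Myc is not used here.

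Library totals ran from 26427467 to 85608113 counts, with CTL 6 h 4.24 the shallowest and the library with the largest scaling factor (1.37). Pcbp2 itself stood at 261 to 396 CPM (a gene's counts scaled to a common library size, TMM-adjusted) in CTL at 0 h, at 13.1 to 22.1 in CKO at 0 h, at 262 to 348 in CTL at 6 h and at 7.27 to 11.3 in CKO at 6 h. A list of 12 T cell markers was detected in every library with none at 0, and its summed level was 6681 to 9080 CPM at 0 h and 3432 to 4451 at 6 h, with 10 of the 12 called lower at 6 h in each genotype. B cell markers summed to 23.5 to 427 CPM and myeloid markers to 9.33 to 171. CKO 0 h 4.24 and CKO 0 h 5.6 are labelled male but held Xist at 1160 and 1353 CPM, a level found otherwise only in libraries labelled female, so the genotype differences of Mxd1 and Myc at 0 h are also given without both; 0 of 10 members were called by genotype at 0 h without them.

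With stimulation the members went in different directions. Among the 10 members, 3 rose in CTL cells (Myc, Mycn and Mxd1) and 4 fell (Max, Mxd3, Mxd4 and Mlx), at an adjusted p under 0.05. In CKO cells 4 rose, the same 3 with Mxi1, and the same 4 fell. The background is wide: 41.6% of all genes tested were called higher and 21.7% lower in CTL, and 19.6% and 13.1% in CKO (63.4% and 32.8% either way), so these counts by themselves do not set the members apart. Every member but Mycn had a mean CPM of at least 1 over the libraries. Among the 14189 tested genes with that level, 2400 were called higher and 5525 lower in CTL (55.9% either way). In CKO 1467 were higher and 3208 lower (32.9%). Their median log2 fold changes were -0.20 in CTL and -0.12 in CKO. The median log2 fold change over all genes tested was 0.31 in CTL and 0.12 in CKO. With plain library totals in place of TMM scaling that median became 0.57 in CTL and 0.21 in CKO. On that scale 4 members were called higher in CTL (Mxi1 too) and 2 lower (Mxd4 and Mlx), since Max and Mxd3 no longer passed. In bulk RNA, fewer cells of a kind and less RNA per cell cannot be told apart. Where groups are said below not to overlap, the share of all genes that separate in the same way was not counted.

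**Figure D1:**
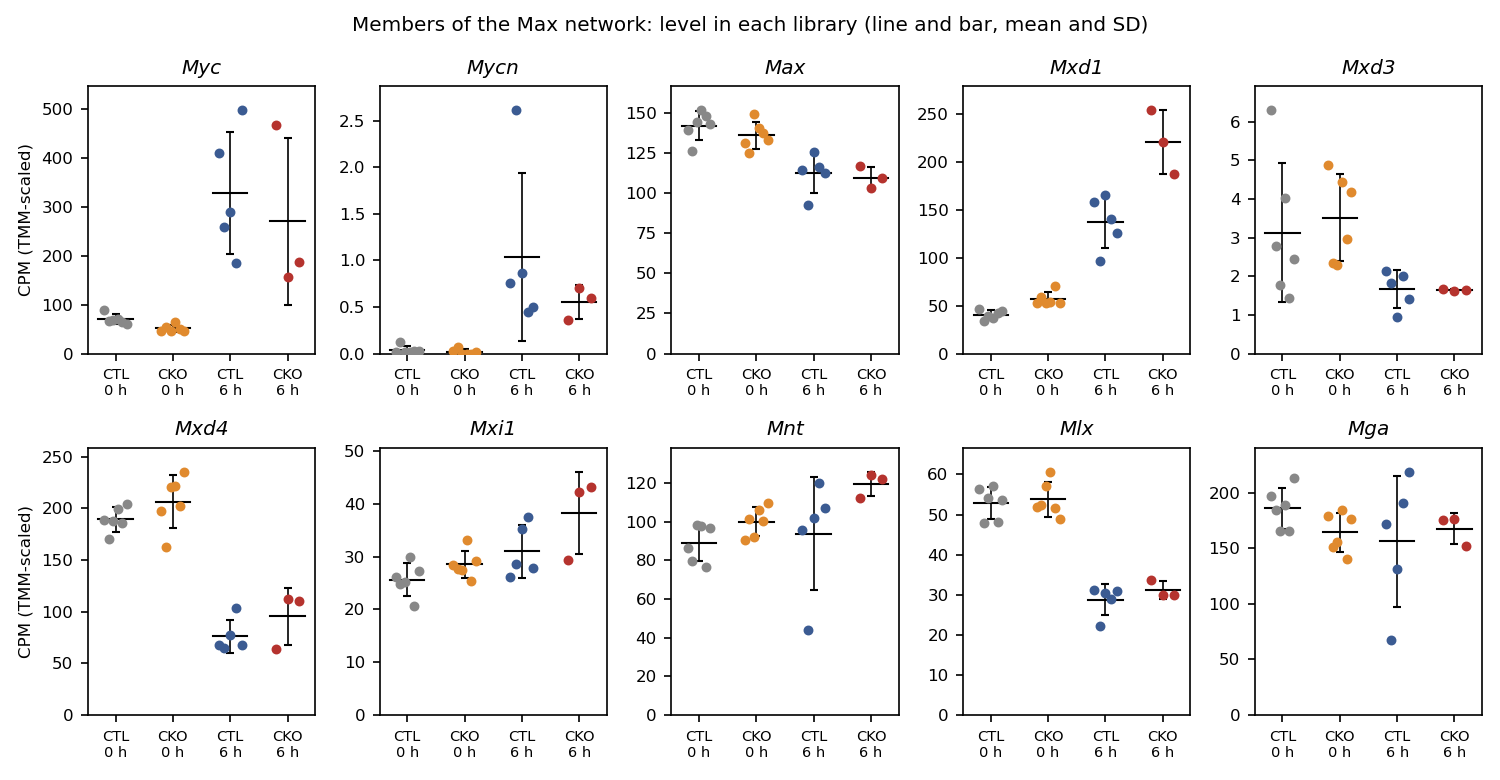
Level of each of the 10 members in every library, in CPM on TMM-scaled totals (y axis, from 0, a separate scale for each gene), by genotype and time. Points are libraries, lines are group means and bars are SD; Myc and Mxd1 stand higher in every 6 h library than in any 0 h library, and Mxd4 and Mlx lower.

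Myc (ENSMUSG00000022346, chr15:61985391-61990374, plus strand, GRCm38) encodes the activator. At 0 h it stood between 60.2 and 90.0 CPM in CTL (median 67.6) and between 46.0 and 63.4 in CKO (median 48.3). At 6 h the CTL libraries held 290 (4.29), 259 (4.24), 184 (5.13), 497 (9.20) and 411 CPM (10.28), and the CKO libraries 155 (5.13), 187 (5.6) and 467 (11.18). No 6 h library overlapped the 0 h libraries, and the 6 h values spread widely within each genotype. Myc rose by a log2 fold change of 2.22 ± 0.26 (SE; 4.67-fold; adjusted p = 1.49e-06) in CTL and 2.41 ± 0.29 (5.32-fold; adjusted p = 5.38e-06) in CKO. In CKO the size rests partly on library 11.18: without it the log2 fold change was 1.67 (adjusted p = 0.000199).

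Mycn (ENSMUSG00000037169, chr12:12936093-12941914, minus strand), the paralogue best known from embryonic and neural cells, was close to absent. It had 0 to 9 counts in any 0 h library and 24 to 94 at 6 h. In CTL at 6 h those counts came to 0.864 (4.29), 2.61 (4.24), 0.442 (5.13), 0.500 (9.20) and 0.761 CPM (10.28), and in CKO to 0.707 (5.13), 0.601 (5.6) and 0.357 (11.18). Every 6 h library lay above every 0 h library, and CTL 6 h 4.24 lay well above the others. The log2 fold change was 4.80 ± 0.71 in CTL (adjusted p = 2.06e-05) and 4.44 ± 0.79 in CKO (adjusted p = 0.000433), sizes that rest on a handful of counts at 0 h. Per length of transcript, Mycn at 6 h reached a mean of 0.314 RPKM (CPM per kilobase of exon) in CTL, beside 121 for Myc.

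Max (ENSMUSG00000059436, chr12:76937269-76962201, minus strand), the shared partner, fell slightly. It held 127 to 152 CPM in CTL and 125 to 150 in CKO at 0 h. At 6 h the CTL libraries held 126 (4.29), 92.7 (4.24), 117 (5.13), 113 (9.20) and 114 CPM (10.28), and the CKO libraries 103 (5.13), 110 (5.6) and 117 (11.18). The 6 h libraries were all below the 0 h libraries of their genotype. The log2 fold change was -0.35 ± 0.08 in CTL (adjusted p = 0.000942) and -0.28 ± 0.10 in CKO (adjusted p = 0.0370). With plain library totals it was -0.10 (adjusted p = 0.199) in CTL and -0.18 (adjusted p = 0.0940) in CKO, and neither passed. In CKO the call was also lost in 7 of the 20 fits that left out 1 library, with an adjusted p of up to 0.220 (without CKO 6 h 5.13).

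Mxd1 (ENSMUSG00000001156, chr6:86647042-86669161, minus strand) is the repressor gene known to rise as cells leave the cycle and mature. At 0 h it stood between 34.1 and 46.4 CPM in CTL (median 40.5) and between 52.6 and 70.6 in CKO (median 53.5). At 6 h the CTL libraries held 165 (4.29), 97.1 (4.24), 141 (5.13), 126 (9.20) and 158 CPM (10.28), and the CKO libraries 221 (5.13), 188 (5.6) and 254 (11.18). The 4 groups do not overlap anywhere, in the order CTL 0 h, CKO 0 h, CTL 6 h, CKO 6 h. With stimulation Mxd1 rose by 1.75 ± 0.13 on the log2 scale in CTL (3.36-fold; adjusted p = 4.83e-09) and by 1.99 ± 0.15 in CKO (3.97-fold; adjusted p = 1.16e-08).

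Mxd4 (ENSMUSG00000037235, chr5:34173883-34187720, minus strand), a repressor gene of resting and differentiated cells, moved the opposite way. At 0 h it stood between 170 and 204 CPM in CTL (median 188) and between 163 and 235 in CKO (median 212). At 6 h the CTL libraries held 77.1 (4.29), 65.3 (4.24), 103 (5.13), 67.4 (9.20) and 68.2 CPM (10.28), and the CKO libraries 112 (5.13), 111 (5.6) and 63.6 (11.18). All 6 h libraries were below all 0 h libraries. Mxd4 fell by 1.32 ± 0.15 on the log2 scale in CTL (adjusted p = 1.02e-06) and by 1.08 ± 0.18 in CKO (adjusted p = 0.000277).

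Mxd3 (ENSMUSG00000021485, chr13:55325168-55329823, minus strand), a family member expressed in S phase, was scarce. It held 1.44 to 6.29 CPM in CTL and 2.28 to 4.88 in CKO at 0 h, against 0.937 to 2.13 and 1.61 to 1.67 at 6 h. It fell by 0.88 ± 0.33 on the log2 scale in CTL (adjusted p = 0.0259) and by 1.2 ± 0.41 in CKO (adjusted p = 0.0298). In CTL the ranges overlapped, and without CTL 0 h 10.28, the library with the highest value, the adjusted p was 0.102. The CKO call was lost in 5 of the 20 fits that left out 1 library, with an adjusted p of up to 0.0884 (without CKO 6 h 11.18). In a list of 16 cell cycle markers 6 fell in CTL and 4 in CKO, and 0 rose. Of all genes tested 21.7% and 13.1% were called lower, and of the 14189 with a mean CPM of at least 1, 5525 and 3208. These counts by themselves do not set the list apart. Its summed level was 291 to 674 CPM at 0 h and 284 to 396 at 6 h, and its part in the Mxd3 result was not tested. Mxd3 also shares 105 bases of exon with Prelid1 on the opposite strand, a gene with a mean of 10649 counts against 184 for Mxd3, and the strand setting of the counting is not given in the sources used here.

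Mxi1 and Mnt, the other repressor genes, were nearer to level. Mxi1 (ENSMUSG00000025025, chr19:53310518-53375810, plus strand) held 20.6 to 30.0 CPM in CTL and 25.3 to 33.1 in CKO at 0 h, and 26.1 to 37.4 and 29.4 to 43.2 at 6 h. Its log2 fold change was 0.26 ± 0.12 in CTL (adjusted p = 0.0616) and it rose by 0.48 ± 0.14 in CKO (adjusted p = 0.0140). Mnt (ENSMUSG00000000282, chr11:74830920-74845725, plus strand), the most broadly expressed antagonist of Myc, held 76.8 to 98.3 CPM in CTL and 90.7 to 110 in CKO at 0 h. At 6 h it held 43.8 to 120 CPM in CTL and 112 to 124 in CKO, with log2 fold changes of 0.02 ± 0.15 (adjusted p = 0.910) and 0.38 ± 0.17 (adjusted p = 0.10). The lowest CTL value belonged to 4.24, and without that library Mnt was 0.22 higher on the log2 scale at 6 h in CTL (adjusted p = 0.0163) and also passed in CKO (adjusted p = 0.00432).

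Mlx (ENSMUSG00000017801, chr11:101087277-101092207, plus strand), the partner of the Mondo factors, fell in both genotypes. It held 47.9 to 57.1 CPM in CTL and 49.0 to 60.6 in CKO at 0 h, and 22.2 to 31.3 and 29.8 to 33.7 at 6 h, with no overlap. The log2 fold change was -0.89 ± 0.09 in CTL (adjusted p = 2.21e-07) and -0.74 ± 0.11 in CKO (adjusted p = 5.06e-05). Mlx shares 385 bases of exon, 19.3% of its exon length, with Psmc3ip on the opposite strand, a gene with a mean of 267 counts against 3070 for Mlx. Mga (ENSMUSG00000033943, chr2:119897228-119969581, plus strand) had log2 fold changes of -0.30 ± 0.18 in CTL (adjusted p = 0.161) and 0.12 ± 0.22 in CKO (adjusted p = 0.714). Its CTL range at 6 h, 67.6 to 219 CPM, was the wider for 4.24, the lowest library.

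**Figure D2:**
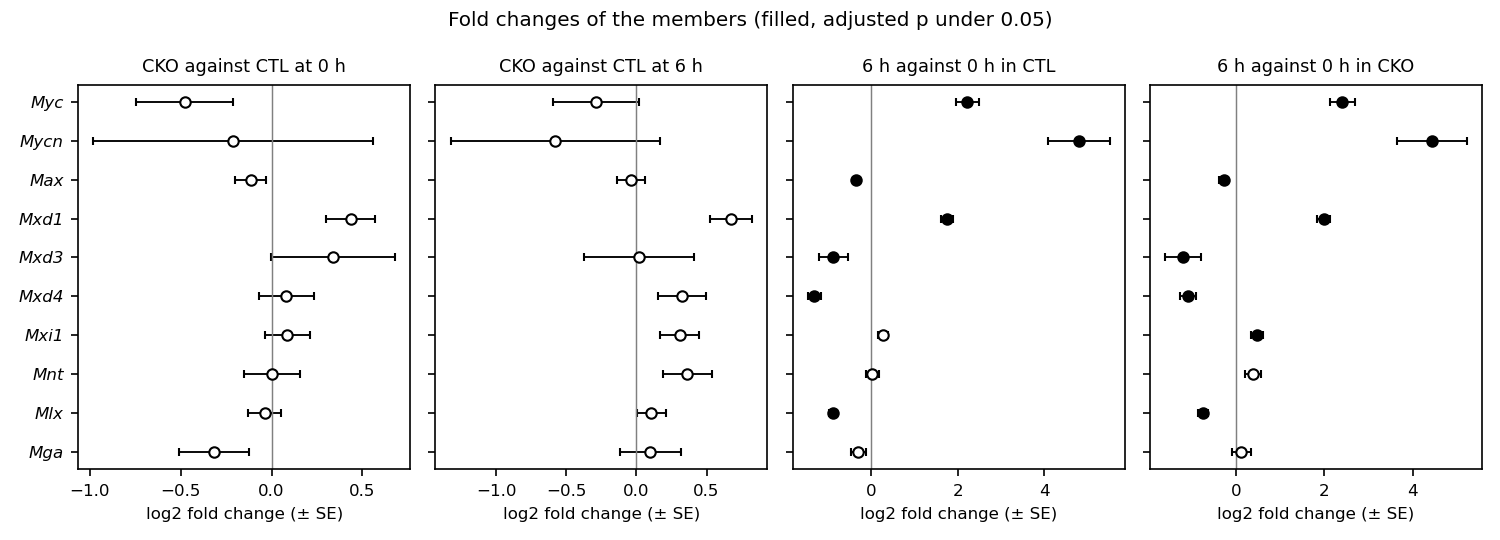
Log2 fold change (x axis, each panel on its own scale) of the 10 members in 4 comparisons, with bars of 1 SE; filled points have an adjusted p under 0.05. Both responses to stimulation have Myc, Mycn and Mxd1 to the right and Max, Mxd3, Mxd4 and Mlx to the left, and no member is filled in the comparisons of genotype.

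Levels per length show how the order of the network changed. In CTL at 0 h Max led with a mean of 39.6 RPKM, ahead of Mlx (26.4), Myc (25.8), Mxd4 (22.3) and Mnt (19.3), whose neighbours overlapped in their ranges. Mga (12.1), Mxd1 (5.72), Mxi1 (3.76), Mxd3 (1.32) and Mycn (0.0113) followed, each separate from the next. In CTL at 6 h Myc led with 121 RPKM, apart from the rest. Max (31.3), Mnt (20.3), Mxd1 (19.4), Mlx (14.4), Mga (10.2) and Mxd4 (8.99) came next, each overlapping its neighbour, above Mxi1 (4.54), Mxd3 (0.704) and Mycn. In CKO the order was Max, Mlx, Mxd4, Mnt and Myc (37.9, 26.9, 24.4, 21.6 and 18.8 RPKM) at 0 h. At 6 h it was Myc, Mxd1, Max and Mnt (99.3, 31.3, 30.5 and 25.9 RPKM), with the ranges of Mxd1 and Max overlapping.

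The make-up of the 5 repressor genes differed between 0 h and 6 h in both genotypes. Their summed level was 52.4 ± 3.97 RPKM (SD, n = 6) in CTL at 0 h and 54.0 ± 10.9 (n = 5) at 6 h, and 59.7 ± 4.07 (n = 6) and 74.7 ± 3.09 (n = 3) in CKO. The shallowest library, CTL 6 h 4.24, held 35.9 RPKM, and the other CTL libraries at 6 h held 53.6 to 64.4. Mxd4 made up 42.7% ± 1.58 of that sum in CTL at 0 h and 16.9% ± 3.11 at 6 h, while Mxd1 went from 10.9% ± 1.18 to 36.3% ± 4.0. In CKO the share of Mxd4 went from 40.7% ± 3.20 to 15% ± 4.11 and that of Mxd1 from 13.5% ± 1.95 to 41.9% ± 6.75. Mnt made up 36.7% ± 2.01 and 36.8% ± 6.39 in CTL at 0 h and 6 h. At 6 h its share was 26.4% in CTL 4.24 and 36.7% to 43.3% in the other CTL libraries. The ratio of Myc to the 5 repressors was 0.394 to 0.614 in CTL and 0.265 to 0.370 in CKO at 0 h, without overlap. At 6 h it was 1.05 to 3.41 in CTL and 0.731 to 2.36 in CKO, with wide overlap. These sums and ratios are of RNA and were not tested.

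**Figure D3:**
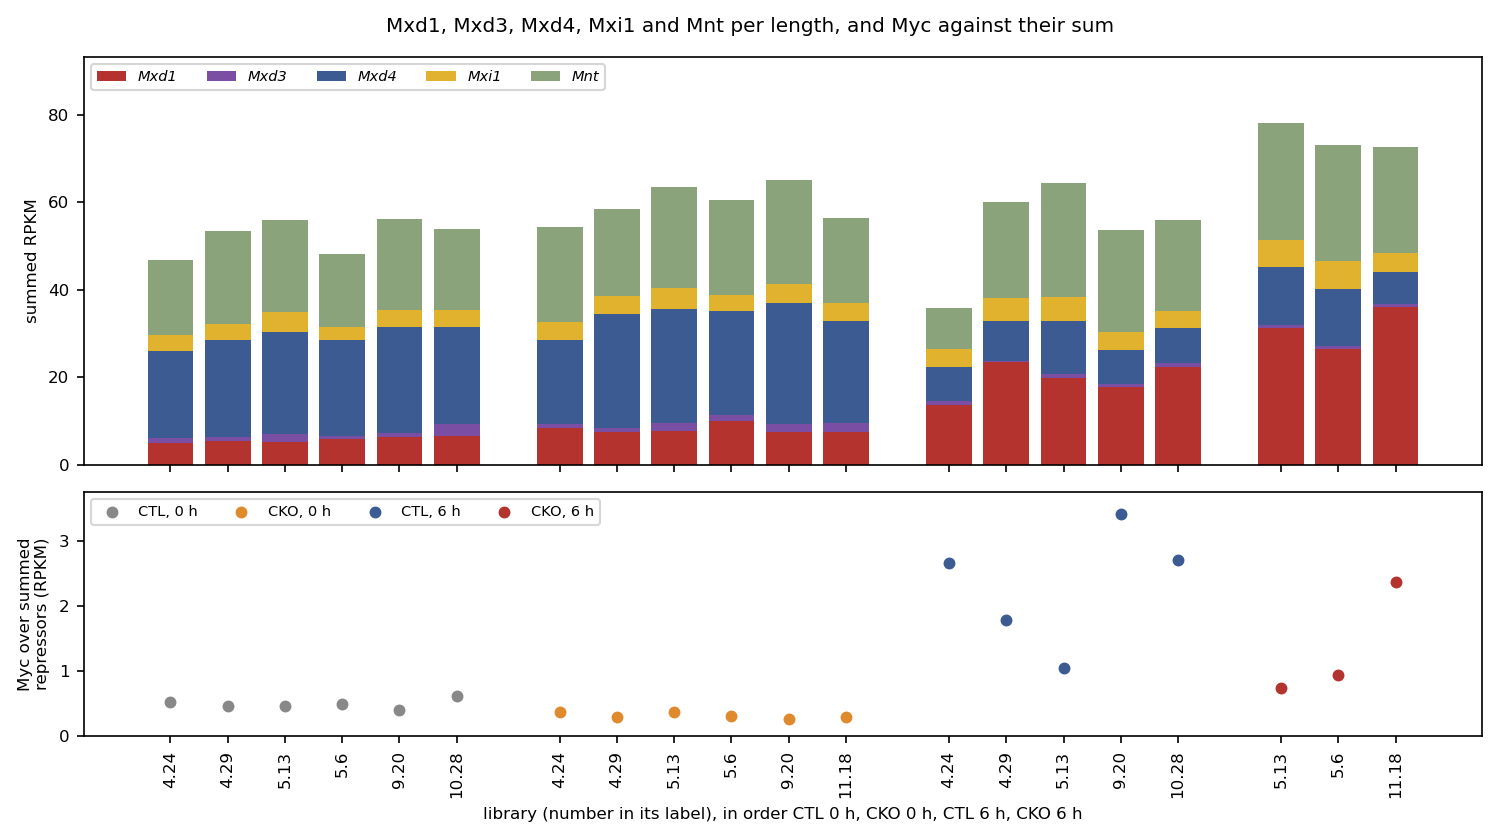
Upper panel, summed level of Mxd1, Mxd3, Mxd4, Mxi1 and Mnt in each library (RPKM, bars from 0, coloured by gene); lower panel, the ratio of Myc to that sum. Libraries are grouped as CTL 0 h, CKO 0 h, CTL 6 h and CKO 6 h; the Mxd4 part shrinks and the Mxd1 part grows at 6 h, and the ratio at 6 h runs from 0.731 to 3.41.

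Loss of Pcbp2 moved no member past the threshold. At 0 h 0 of 10 members were called, with 0.424% of all genes called (119; 0.231% higher and 0.192% lower), and at 6 h 0 of 10, with 0.292% (82; 0.253% higher and 0.0392% lower). At an unadjusted p under 0.05, 1 member passed at 0 h (Mxd1) and 3 at 6 h (Mxd1, Mxi1 and Mnt). DESeq2 called 0 members at 0 h and 1 at 6 h, Mxd1. The difference between the genotypes' responses was called for 0 of 10 members and for 0% of all genes by edgeR and by DESeq2, with 2725 genes at an unadjusted p under 0.05, so that a member passing in 1 genotype only, as Mxi1 did, is not shown to respond differently.

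Mxd1 was the member nearest to a genotype difference. At 0 h it was 0.44 ± 0.14 higher in CKO on the log2 scale (1.35-fold; adjusted p = 0.266 by edgeR's quasi-likelihood test). At 6 h it was 0.68 ± 0.15 higher (1.6-fold; adjusted p = 0.0683), just outside the threshold. All 6 CKO libraries at 0 h and all 3 at 6 h lay above every CTL library of their time. How many of all genes separate the genotypes in this way was not counted. Of the 5 numbers found in both genotypes at 0 h, all 5 had more Mxd1 in CKO, by 0.27 to 0.78 on the log2 scale. The single such number at 6 h, 5.13, had 0.65 more. At each time the difference passed in only 1 of the 20 fits that left out 1 library. At 0 h it passed without CTL 6 h 4.24 (adjusted p = 0.0450). It also passed at 0 h in 2 of 13 other settings (smallest adjusted p = 0.0130), both without that library and both added after seeing the data. With CKO 0 h 5.6 left out instead, the adjusted p was 0.69. At 6 h it passed without CTL 6 h 10.28 (adjusted p = 0.0434). With CKO 6 h 5.13 left out instead, the adjusted p was 0.329. DESeq2 gave an adjusted p of 0.00279 at 6 h and 0.0600 at 0 h. Without the pair CKO 0 h 4.24 and 5.6, whose Xist level goes against their label, the 0 h difference was 0.32 (adjusted p = 0.733). In the regulatory T cell list of 8 markers all 8 had positive log2 fold changes in CKO at both times, and 1 was called at 0 h and 2 at 6 h. Their summed level at 0 h was 408 to 724 CPM in CTL and 514 to 1408 in CKO, and at 6 h 542 to 720 and 703 to 993. Number 4.24, with the largest Mxd1 difference at 0 h (0.78), had a lower sum in CKO (514 CPM) than in CTL (639). Number 9.20, with the smallest Mxd1 difference (0.27), had 1408 CPM in CKO and 575 in CTL. These markers were read in cells sorted as CD25-. At 0 h 12 of 12 B cell, 11 of 12 myeloid, 7 of 7 dendritic cell and 15 of 16 cell cycle markers were also positive in CKO. At 6 h it was 10 of 12, 7 of 12, 3 of 7 and 14 of 16. Of T cell, natural killer cell and erythroid markers, 6 of 12, 5 of 7 and 1 of 7 were positive at 0 h. At 6 h it was 8 of 12, 3 of 7 and 0 of 7. In each of these lists 0 were called. The signs come from the fit with the sex label as given. Summed B cell markers at 0 h overlapped, at 73.0 to 427 CPM in CTL and 59.6 to 271 in CKO. The part of those cells in the Mxd1 values was not tested.

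Myc itself was lower in CKO at 0 h by 0.48 ± 0.27 on the log2 scale, which did not pass (adjusted p = 0.751). All 6 CKO libraries lay below the CTL mean, the ranges overlapped, and all 5 same-numbered pairs had less Myc in CKO, by 0.15 to 0.56. Without CKO 0 h 4.24 and 5.6 the difference was -0.52 (adjusted p = 0.820). At 6 h the difference was -0.29 ± 0.31 (adjusted p = 0.558), and without CKO 6 h 11.18 it was -0.95 (adjusted p = 0.121). Mga showed the same order at 0 h, -0.32 ± 0.19 (adjusted p = 0.797), with all 5 pairs lower in CKO. Mycn (lower in CKO) and Mxi1 (higher, by 0.10 to 0.29) also went 1 way in all 5 pairs. The share of all genes that do so was not counted. Members other than Mxd1, Myc and Mga differed by log2 values from -0.21 (Mycn) to 0.34 (Mxd3) at 0 h and from -0.58 (Mycn) to 0.36 (Mnt) at 6 h. These values do not show that the genotypes are alike, since SEs ran up to 0.77.

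**Figure D4:**
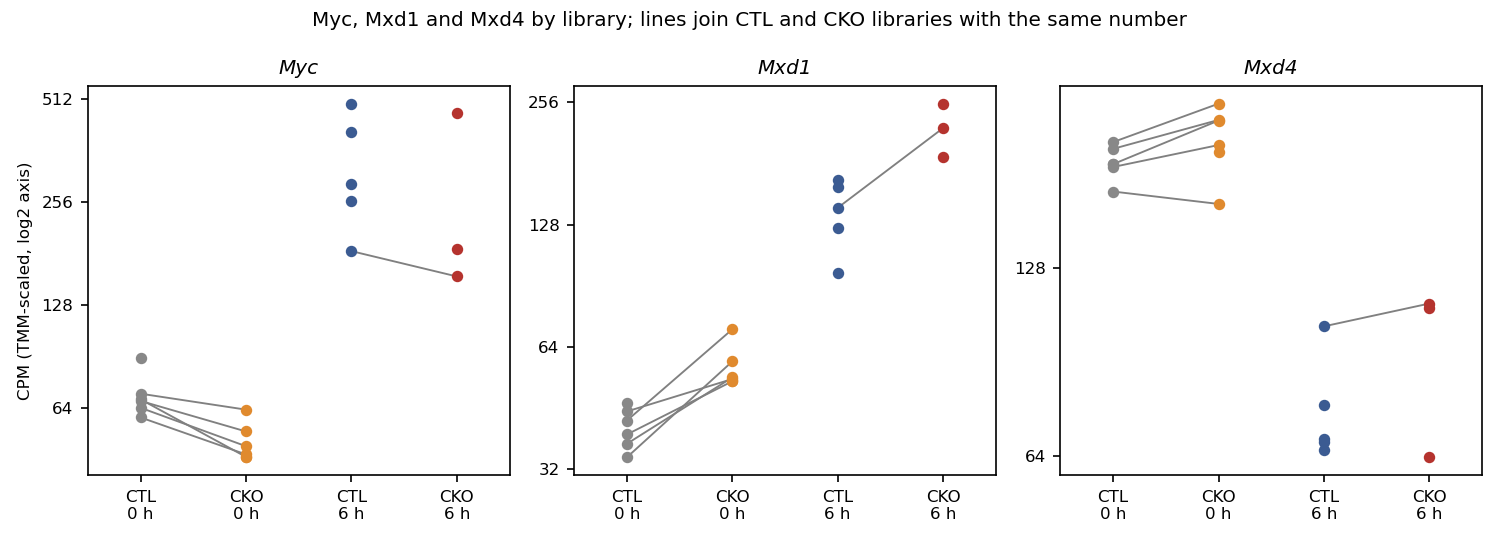
Myc, Mxd1 and Mxd4 in each library (CPM, log2 axis) by genotype and time; grey lines join CTL and CKO libraries of the same number. All 5 lines at 0 h go down for Myc and up for Mxd1, and at 6 h only number 5.13 is in both genotypes.

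The genes whose profiles over the 20 libraries lay closest to a member's were found by the root mean square (RMS) difference of centred log2 CPM among 11501 candidates. For Myc, whose own profile had an RMS of 1.18, they were Cd69 (0.26), Map2k3os (0.32), Txnrd3 (0.34), Tnf (0.35) and Nfkbid (0.35). Cd69 is an early activation marker, Tnf a cytokine and Nfkbid an inhibitor in the NF-kB pathway. For Mxd1 (own RMS 0.93) they were Ecm1 (0.24), Bcl2l11 (0.26) and Samhd1 (0.26), and for Mxd4 (own RMS 0.67) Trpv2 (0.13), Zscan2 (0.14) and Ptpre (0.16). For Mxd3 (own RMS 0.66) they were the cell cycle genes Ccna2 (0.20), Top2a (0.21) and Cdk1 (0.23). For Mlx (own RMS 0.44) they were Hexa (0.10), Actr3 (0.11) and Abhd17a (0.11). The profiles share the libraries and the step from 0 h to 6 h, so likeness is a description only.

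Targets and partners of the network were read from gene lists, and their counts are set against the shares of all genes tested: 41.6% higher and 21.7% lower in CTL (median log2 fold change 0.31), and 19.6% and 13.1% in CKO (median 0.12). Of 35 genes known to be activated by Myc, 24 rose and 1 fell in CTL with stimulation, with a median log2 fold change of 0.59, and 15 rose and 0 fell in CKO, with a median of 0.52. Odc1, the first enzyme of polyamine synthesis, went from 89.6 to 825 CPM in CTL and from 131 to 839 in CKO (log2 fold changes 3.15 ± 0.19 and 2.79 ± 0.21; adjusted p = 4.52e-10 and 1.59e-08). Hk2, a hexokinase of glycolysis, rose by 2.39 ± 0.31 and 2.17 ± 0.34, and Ncl, the nucleolar protein nucleolin, by 1.04 ± 0.17 and 0.99 ± 0.20. Srm, the spermidine synthase, rose by 1.53 ± 0.25 in CTL, and Slc7a5, a chain of the large amino acid transporter, by 1.44 ± 0.32 in CKO. With 1 library left out, 18 to 25 of the 35 rose in CTL and 3 to 18 in CKO: 8 rose in CKO without CKO 0 h 9.20, and 3 rose and 1 fell, with a median of 0.13, without CKO 6 h 11.18, the CKO library with the most Myc. By genotype 0 of 35 were called at either time. The median was -0.09 at 0 h, where 8 were positive, and -0.23 at 6 h, where 3 were. Medians over all genes were 0.05 and -0.29. For the 14189 more abundant genes (mean CPM no lower than 1) they were -0.007 and 0.07. At 6 h the median of the 35 was thus near that of all genes but below that of the abundant ones. With 1 library left out the median at 6 h ran from -0.56 (without CKO 6 h 11.18) to -0.04 (without CTL 6 h 9.20). Among the 28 of these genes with a RefSeq window, 7 held CACGTG (25.0%), against 8.09% of all genes.

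Genes known to be repressed by Myc split. Of 12, 5 rose and 4 fell in CTL, and 4 rose and 4 fell in CKO, where all genes gave 41.6% higher and 21.7% lower in CTL and 19.6% and 13.1% in CKO. Cdkn1a and Gadd45b, a cell cycle inhibitor and a stress gene, rose by 4.52 ± 0.26 and 3.33 ± 0.22 in CTL and by 2.82 ± 0.27 and 2.69 ± 0.24 in CKO. Ndrg1 rose by 1.56 ± 0.16 in CTL and 1.57 ± 0.19 in CKO, while Ndrg2 fell by 1.19 ± 0.16 in CTL. By genotype, Cdkn1a was the 1 gene of all 12 called at 0 h, at 1.21 ± 0.36 CPM in CTL and 2.54 ± 0.79 in CKO (SD, n = 6 each; log2 fold change 1.23 ± 0.26, adjusted p = 0.0440). That call was lost in 15 of the 20 fits that left out 1 library, with adjusted p up to 0.178.

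Of 8 genes regulated by the Mondo factors with Mlx, 2 rose and 3 fell in CTL, and 3 rose and 2 fell in CKO, beside the same shares of all genes. Txnip, the best known glucose-sensing target, was not called by genotype at 0 h (0.40 ± 0.20; adjusted p = 0.680) or 6 h (0.43 ± 0.22; adjusted p = 0.403). Pklr, a pyruvate kinase gene, rose by 3.81 ± 0.58 in CTL and 3.18 ± 0.63 in CKO, from means of 0.121 and 0.0531 CPM at 0 h to 1.47 and 0.696 at 6 h, with CTL 6 h 4.24 highest at 4.31. Klf10 fell by 0.49 ± 0.11 in CTL and 1.12 ± 0.14 in CKO. Among 5 further relatives of the network, Mlxipl rose (3.44 ± 0.62) and Mlxip, which encodes the Mondo factor of lymphocytes, fell (-0.44 ± 0.19; adjusted p = 0.0480) in CTL; without CTL 6 h 4.24 Mlxip was at -0.19 (adjusted p = 0.0953). In CKO Mycl (-3.54 ± 0.89; adjusted p = 0.00547) and Bmyc (-0.58 ± 0.20; adjusted p = 0.0315) fell.

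Counts among the partners that work with the members changed with the libraries used. Of 10 corepressor genes used by Mxd and Mnt, 1 rose (Sap30) and 2 fell (Hdac1 and Ncor1) in CTL, and 1 rose and 1 fell in CKO; without CTL 6 h 4.24, 3 rose and 2 fell in CTL and 2 rose and 2 fell in CKO. Ncor1, a nuclear receptor corepressor, went from 575 to 333 CPM in CTL (-0.81 ± 0.14; adjusted p = 7.09e-05). Of 10 genes of the Mga complex, 1 rose and 3 fell in CTL and 0 rose and 3 fell in CKO; those that fell were Hdac1, Cbx3 and Ring1. Without CTL 6 h 4.24, 4 rose and 3 fell in CTL and 2 rose and 3 fell in CKO, and without CKO 6 h 11.18, 0 fell in CKO. Of 14 cofactor genes of Myc, 1 rose and 5 fell in CTL, with Kat2a, an acetyltransferase, at -0.93 ± 0.17 and Ruvbl1 at 0.74 ± 0.19; without CTL 6 h 4.24, 5 rose and 3 fell. For all genes the share called either way was 63.4% in CTL. Of 14 genes for turnover of the Myc protein, 3 fell in each genotype, and with 1 library left out 3 to 6 in CTL and 1 to 3 in CKO. Ppp2r5a, a phosphatase subunit, fell by 0.96 ± 0.12 in CTL and 0.60 ± 0.14 in CKO.

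Of 14 genes for proteins that act on the Myc gene or mRNA, 3 rose (Igf2bp1, Igf2bp3 and Cnbp) and 1 fell (Fubp3) in CTL. In CKO Igf2bp1 rose, and the Pcbp2 signal left after the deletion fell by 0.96 on the log2 scale (adjusted p = 0.00113). In CTL, where Pcbp2 is intact, its log2 fold change was -0.05 (adjusted p = 0.789). Igf2bp1, which stabilises Myc mRNA, went from 0.210 to 6.35 CPM in CTL and from 0.0978 to 2.21 in CKO, with CTL 6 h 4.24 highest at 19.7; without that library its log2 fold change in CTL was 4.66 in place of 5.29. By genotype, the 1 gene of this list called was Pcbp2, at -4.30 ± 0.17 at 0 h and -5.21 ± 0.23 at 6 h. It is the gene deleted in CKO, so that call was set by the design. Of the 14 germline genes silenced by Mga with its complex, 11 passed the filter, and 9 rose in CTL and 1 in CKO, beside 41.6% and 19.6% of all genes. With 1 library left out the CKO count was 0 to 4, with 4 without CKO 0 h 4.24 and 0 without CKO 0 h 5.13, CKO 0 h 5.6, CKO 6 h 5.13 or CKO 6 h 11.18. They stayed scarce: Ddx4, an RNA helicase of germ cells, went from 0.192 to 1.69 CPM in CTL, with CTL 6 h 4.24 highest at 5.56. Without that library 8 of the 11 rose, and the median log2 fold change was 2.11 in place of 2.99. Rises in CTL were more frequent among scarce genes in general. Of all 28082 genes tested 11684 were called higher, but of the 14189 with a mean CPM of at least 1 only 2400 were. The 41.6% is therefore too low a yardstick for scarce genes, and these counts do not set the germline genes apart.

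**Figure D5:**
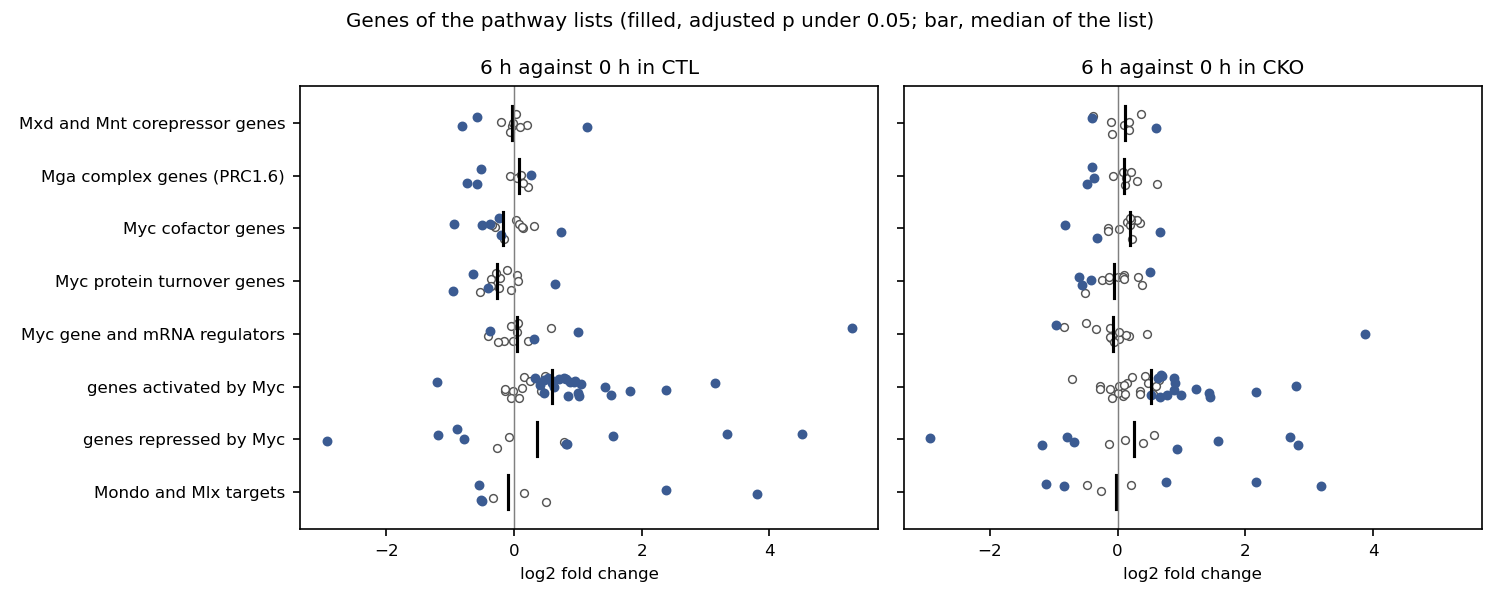
Log2 fold change with stimulation (x axis) of the genes in 8 lists around the network, in CTL (left) and CKO (right). Each point is a gene, filled where the adjusted p is under 0.05, and bars are list medians; the genes activated by Myc have medians of 0.59 and 0.52.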

How the data were processed

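Deposited values were read counts per gene that the authors made; per the submitters' processing notes, the tools were Trimmomatic 0.36, STAR 2.5.2b and featureCounts of Subread 1.5.2, with GRCm38. No source used here gives the strand setting or the filters. Per the labels' protocols, libraries were stranded mRNA libraries read as pairs. Members and lists were chosen with earlier results of these data known.

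Of 49315 IDs, 49056 matched GENCODE M21. Genes passed filterByExpr at a minimum count of 10 and a minimum total of 15. Counts were scaled by TMM and fitted over all 20 libraries by edgeR's quasi-likelihood test (edgeR 4.0.16, R 4.3.3), with group and the sex label as terms. SE is the log2 fold change over the root of F. P-values were adjusted by Benjamini-Hochberg over 28082 genes, and a call is an adjusted p under 0.05. CPM use TMM-scaled totals; RPKM divide CPM by merged exon length in kilobases. Nothing says how many animals gave each library, so p-values measure the spread between libraries. Chi-square over degrees of freedom was at least 18.7 for every pair of libraries in a group, where sampling noise gives 1, so none was counted as a copy. Same-numbered libraries of different groups deviated together (correlations 0.30 to 0.67 over 5 CTL and CKO pairs at 0 h, 0.29 to 0.51 over 5 CTL pairs and 0.15 to 0.50 over 3 CKO pairs across time). Named genes are the members, Pcbp2, up to 4 called genes with the smallest adjusted p per list (or the 2 most abundant where none was called) and the genes nearest in profile (5 for Myc, 3 for others; mean CPM of at least 1, leaving out members, clone-named models, sex-linked genes and receptor segments). Rises among the Myc protein turnover genes are not reported here. Alternatives were RLE factors, plain totals, other filters, no sex term, a replicate block, only the groups compared, a fold test at 1.5, DESeq2 1.42.0 and leaving out libraries; 2 settings without CTL 6 h 4.24 and the list counts with libraries left out were chosen after seeing the data.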

Additional observations from a re-analysis of the deposited data

Results flagged for a closer look

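Libraries standing apart within their group were looked for in 30 combinations of a member and a group of 5 or 6 libraries, and 5 were found; chance alone gives about 1 in 20. Myc in CTL 0 h 10.28 was 90.0 CPM, with the next library at 70.6. Mxd1 in CKO 0 h 5.6 was 70.6 CPM, with the next at 58.8; that library is 1 of the pair whose Xist level goes against the sex label. Mycn in CTL 0 h 4.24 was 0.124 CPM, a value of 9 counts, and in CTL 6 h 4.24 it was 2.61 CPM (94 counts), with the next library at 0.864. Mlx in CTL 6 h 4.24 was 22.2 CPM, with the next at 29.0. CTL 6 h 4.24 is the shallowest library.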

How the results depend on the processing

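Neither replicate block fit over all 20 libraries changed the call of a member in any comparison. The block moved the count of all genes called at 0 h by genotype from 119 to 290 with the sex label and to 220 without it, and at 6 h from 82 to 52 and 46. At 0 h the count was 198 with no sex term, 200 with only the groups compared, 14 against a fold of 1.5, 421 with DESeq2, and 49 to 283 with 1 library left out (among them 65 without CKO 0 h 4.29, 79 without CKO 0 h 5.6, 74 without CTL 0 h 5.6, 60 without CKO 0 h 9.20 and 71 without CKO 0 h 11.18). At 6 h it was 8 with only the groups compared, 9 against a fold of 1.5, 432 with DESeq2 and 16 to 212 with 1 library left out (38 without CTL 6 h 4.29, 19 without CKO 6 h 5.13, 51 without CTL 6 h 10.28, 46 without CTL 6 h 9.20 and 182 without CKO 6 h 11.18). With a mean CPM of at least 1, 7653 genes were called in the CTL response and 4956 in the CKO response, which had 4916 against a fold of 1.5 and 4848 to 12042 with 1 library left out (4848 without CKO 6 h 11.18, 5983 without CKO 6 h 5.13). Settings added after seeing the data, both without CTL 6 h 4.24, gave 338 and 829 genes at 0 h, 167 and 130 at 6 h, 7325 in the CTL response with the filter, and 6075 and 14907 in the CKO response. Members called at 0 h by genotype were 0 to 1 with 1 library left out and 1, Mxd1, in both added settings, of which 1 is a replicate block fit. At 6 h they were 1 with DESeq2 and 0 to 1 with 1 library left out. In the CKO response 4 members were called against a fold of 1.5 and 5 to 9 with 1 library left out. Myc, Mycn, Mxd1 and Mxd4 kept their calls in both responses in every setting that could be fitted for them. With plain library totals the share of called genes that were higher went from 65.7% to 78.6% in the CTL response, and the calls at 6 h by genotype went from 71 higher and 11 lower to 56 and 21. No called value changed sign. Low counts limit Mycn and the germline genes.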
